A study of Mesocricetus auratus with 8 samples.

Results

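The genes described here are the core machinery of apoptosis and necroptosis, a list of 34 genes chosen by name and looked up by symbol in the expression table of Syrian hamster satellite cells (SCs), the muscle stem cells of skeletal muscle. Of the 34, 29 had values, among 17590 genes with values in the table. Bcl2l2, Cycs, Xiap, Birc3 and Tnfrsf10b were not analysed here. RNA-seq was performed on 4 control and 4 cold libraries of WT SCs from hindlimb muscle of sexually mature male Slc:Syrian hamsters, purified by preplating and grown on Matrigel in growth medium (GM) with fetal bovine serum, chick embryo extract and basic fibroblast growth factor. The control SCs were kept at 37°C. The cold SCs were cultured for 48 h at 37°C, held for a further 24 h at 37°C in GM with 100 mM HEPES (GM-HEPES), and then placed at 4°C for 24 h without a medium change. The control titles all name day 3, whereas the treatment labels of control replicates 1, 2, 3 and 4 give 3, 4, 5 and 6 days at 37°C, and GM-HEPES is named only in the cold labels, although the study's scheme places the control sampling after that step. By the titles and the study's scheme, cold libraries were collected 24 h later than controls, and cold and the additional day of culture then cannot be told apart. By the treatment labels this would hold for control replicate 1 alone, and which timing is right was not settled here.

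Apoptosis through the mitochondrial route is set by the BCL2 family: BAX and BAK1 open pores in the outer mitochondrial membrane, anti-apoptotic members such as BCL2, BCL-XL and MCL1 hold them back, and BH3-only proteins relay stress signals to both. Released cytochrome c assembles APAF1 and caspase-9 into the apoptosome, whereas death receptors activate caspase-8 through FADD. When caspase-8 is inactive, RIPK1 can activate RIPK3, which phosphorylates MLKL, the protein that ruptures the plasma membrane in necroptosis. Much of this control lies in protein cleavage, phosphorylation and localization, none of which mRNA levels report. The study asked how SCs of a hibernator withstand cold-induced cell death (CICD), and the comparison below asks whether the mRNAs of this machinery differed after 24 h at 4°C.

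Library totals ran from 16530747 to 18533801 expected counts, and the members had between 20 counts (Bmf) and 5658 counts (Mdm2) in a library, so low genes were measured less precisely. All 29 members passed the filter on low counts. The SC and myoblast markers summed to between 2048 and 3278 TPM in the 8 libraries. Fibroblast markers summed to between 733 and 1122 TPM, most of it from Thy1, at 480.1 to 662.2 TPM. The study reported high purity of its isolated hamster SCs by Pax7 and MyoD staining. The defining leukocyte and macrophage genes Ptprc, Adgre1 and Itgam were under 0.5 TPM in every library. The other 3 genes of that list with values, Cd68, Cd14 and Csf1r, were detected, and the list summed to between 40.9 and 104.7 TPM. The first principal component, with 54.5% of the variance, separated replicates 1 and 2 of both groups from replicates 3 and 4 of both groups. Same-numbered control and cold libraries deviated together, and different numbers within replicates 1 and 2 or within 3 and 4 did so to a lesser degree. The edgeR fit was therefore also run with replicate number as a blocking factor, called the replicate block below.

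None of the 29 genes was called after cold exposure. In the edgeR fit without a block, 0 of 29 members reached an adjusted p under 0.05, where 9 of 12506 genes tested were lower (0.072%) and 0 were higher (0%). With the study's additional threshold of a log2 fold change of at least 1, again 0 members were called, against 0.04% of genes lower. In the fit with the replicate block the background was larger, with 667 genes called (5.33%), 509 lower (4.07%) and 158 higher (1.26%), and still 0 of 29 members were called. With the fold threshold added to that fit, 0 members were called, against 0.808% of genes lower and 0.04% higher. At an unadjusted p under 0.05, 2 of 29 members (6.9%) passed without the block, a share near the background of 6.7%, with Bid lower (background 4.13%) and Casp8 higher (background 2.57%). With the block these were 4 members, or 13.8%, against 18.2% of all genes, with Bid and Casp2 lower (background 9.76%) and Casp8 and Bok higher (background 8.48%). DESeq2 also called 0 of 29 members, with a background of 1.11%, and 0 with a replicate block, with a background of 2.65%.

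The changes were small as well as uncalled. The log2 fold changes of cold against control ran from −0.36 for Bid to 0.22 for Bok, with 15 members lower and 14 higher and a median of −0.001, beside 0.007 for all genes tested. The median size of a change, regardless of direction, was 0.066 on the log2 scale for the members and 0.069 for all genes. With the replicate block, the 95% interval of every one of the 29 members lay within a log2 fold change of 1 in either direction, as did 97% of all genes. Without the block this held for 28 members, against 92.9% of all genes, and the exception was the scarce Bmf, whose interval reached −1.06.

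**Figure D1:**
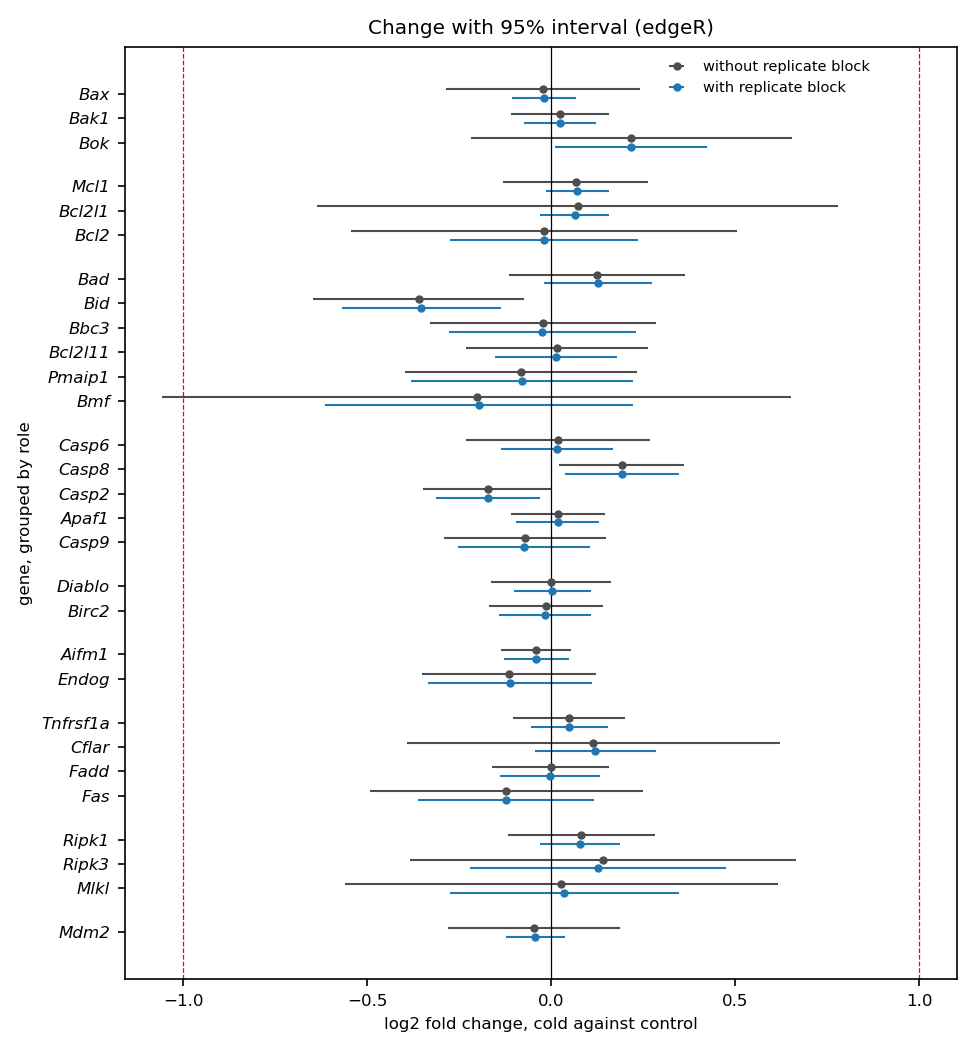
The log2 fold change of cold against control is plotted on the x axis for each of the 29 genes, grouped by role on the y axis, with points for the edgeR estimate and bars for its 95% interval, grey without and blue with the replicate block. Dashed lines mark a log2 fold change of 1 in either direction, and the largest estimates are −0.36 for Bid and 0.22 for Bok.

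The pore formers were led by Bax, the most abundant of the 29 genes. Bax had 309.2, 302.0, 439.0 and 367.8 TPM in control replicates 1 to 4 and 319.9, 300.9, 411.0 and 372.9 TPM after cold (replicates 1 to 4). The groups overlapped over most of their ranges, with a mean of 354.5 ± 63.6 TPM (SD, n = 4) at 37°C and 351.2 ± 50.2 TPM (SD, n = 4) in cold libraries. With the replicate block, edgeR placed the log2 fold change of Bax at −0.02 with a 95% interval from −0.11 to 0.07. Bak1, the second pore former, had 53.4 ± 3.81 TPM at 37°C and 55.0 ± 3.91 TPM after cold (SD, n = 4 each).

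Bok, a less studied relative of BAX and BAK1, gave the largest positive estimate. Its TPM were 7.39, 6.93, 11.29 and 9.97 at 37°C and 8.02, 8.48, 12.76 and 12.44 in cold replicates 1 to 4. Each cold library was above the control library of its own number, but the groups overlapped because replicates 3 and 4 of both groups were above replicates 1 and 2 of both groups. The log2 fold change was 0.22 with an SE of 0.194 and an adjusted p of 0.999 in edgeR without the block, and the SE was 0.0986 and the adjusted p 0.248 with it.

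Of the anti-apoptotic genes, none was called. Mcl1, which encodes a short-lived guardian of the outer mitochondrial membrane, had 63.5, 62.8, 78.1 and 86.8 TPM at 37°C and 70.4, 73.7, 80.5 and 83.0 TPM after cold. The values overlapped, and the log2 fold change was 0.07 with an SE of 0.0873. Bcl2l1, which encodes BCL-XL, had 30.8, 29.3, 60.4 and 61.3 TPM at 37°C and 31.0, 32.3, 65.2 and 63.5 TPM after cold. Bcl2l1 was therefore near one level in replicates 1 and 2 and near another in replicates 3 and 4, whatever the temperature. Its change with cold was 0.07 on the log2 scale with an SE of 0.314 without the block and 0.06 with an SE of 0.0443 with it, and in that blocked fit the 95% interval ran from −0.03 to 0.16. Bcl2 itself was scarce, with 1.16 ± 0.345 TPM at 37°C and 1.15 ± 0.309 TPM after cold (SD, n = 4 each).

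Bid, a BH3-only protein that caspase-8 cleaves to link death receptors to mitochondria, came nearest to a call. Its TPM were 12.27, 12.70, 9.98 and 9.78 at 37°C and 7.99, 8.62, 9.58 and 9.20 in cold replicates 1 to 4. All 4 cold libraries were below all 4 control libraries. Bid was the only member lower in 4 of 4 same-numbered pairs, whereas 5 were higher in 4 of 4 (Bok, Bcl2l1, Bad, Cflar and Casp8). The share of all genes with such agreement over pairs was not counted. The means were 11.2 ± 1.52 TPM at 37°C and 8.85 ± 0.695 TPM after cold (SD, n = 4 each), and the exact two-sided permutation test of TPM gave p = 0.0286, the smallest value that 4 against 4 allows. The log2 fold change was −0.36 with an SE of 0.127 and an adjusted p of 0.579 in edgeR. With the replicate block it was −0.35 with an SE of 0.103, a 95% interval from −0.57 to −0.14 and an adjusted p of 0.0531, just outside the threshold. Leaving out both libraries of 1 number from the blocked fit gave adjusted p of 0.29 without replicate 1, 0.357 without replicate 2, 0.0283 without replicate 3 and 0.0111 without replicate 4 in edgeR.

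The estimate for Bid was read separately in the sets of replicates that the principal component separated. Each set had 2 libraries per group, and both the sets and Bid were picked from these same data. The p-values in this paragraph are therefore descriptive only. In replicates 1 and 2 alone, the log2 fold change was −0.64 with an SE of 0.108, and edgeR called it at an adjusted p of 0.000428, in a fit that called 11.6% of all genes tested. In replicates 3 and 4 alone it was −0.06 with an SE of 0.117 and an adjusted p of 0.997, in a fit that called 0.397% of genes. The test of that difference itself, an interaction term in edgeR, gave 0.58 on the log2 scale with an SE of 0.149 and an adjusted p of 0.272, so the difference between these sets did not pass the correction. That interaction was called in 0.04% of all genes and in 0 members.

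The other BH3-only genes differed by less than the spread between the control replicates. Bad, which binds BCL-XL and is kept inactive by phosphorylation, had 27.1 ± 3.29 TPM at 37°C and 30.1 ± 2.07 TPM after cold (SD, n = 4 each), and was higher in 4 of 4 pairs. Its blocked log2 fold change was 0.13 with an SE of 0.0697 and an adjusted p of 0.354 in edgeR. Bbc3, which encodes PUMA, was at 5.39 ± 0.512 against 5.37 ± 0.883 TPM, and Pmaip1, which encodes NOXA, was at 1.89 ± 0.192 against 1.81 ± 0.0881 TPM (SD, n = 4 each). Bcl2l11, which encodes BIM, was at 3.86 ± 0.182 against 3.95 ± 0.488 TPM (SD, n = 4 each). Bmf, a BH3-only gene linked to the cytoskeleton and the scarcest member, had 0.91, 0.83, 0.40 and 0.36 TPM at 37°C and 0.83, 0.51, 0.42 and 0.42 TPM after cold. Bmf rested on 20 to 48 counts per library, and its values were lower in replicates 3 and 4 of both groups than in replicates 1 and 2 of either.

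**Figure D2:**
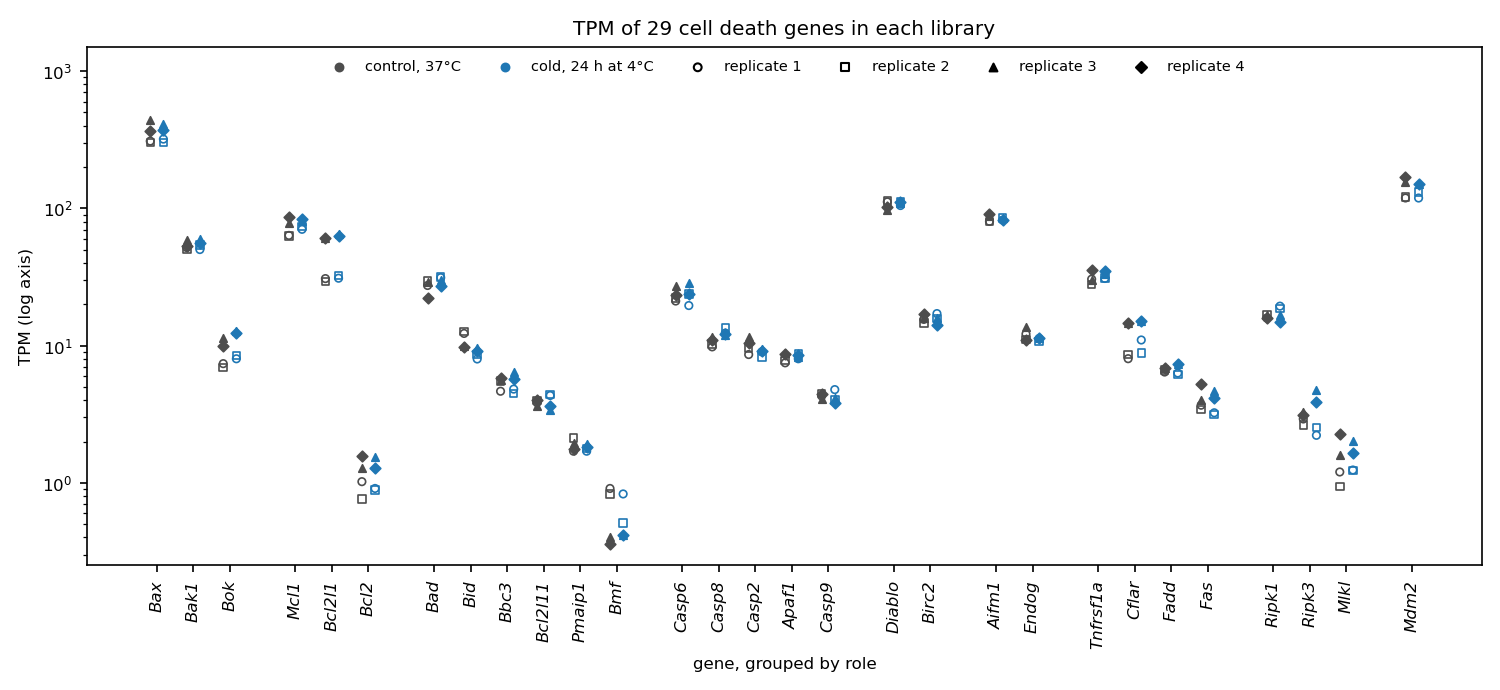
TPM of the 29 genes, on a log y axis, are shown for each of the 8 libraries, grey for control and blue for cold, with a symbol for each replicate number, open for replicates 1 and 2 and filled for replicates 3 and 4. Grey and blue points overlap for every gene but Bid and Casp8, and open and filled points stand apart for genes such as Bcl2l1, Cflar and Bmf.

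Among the caspases, Casp8 and Casp2 were the genes with an unadjusted p under 0.05 in the blocked fit, in opposite directions, and neither was called. Casp8, the initiator caspase of death receptors and the brake on necroptosis, had 9.79, 10.24, 11.57 and 11.00 TPM at 37°C and 12.34, 13.46, 11.96 and 12.24 TPM after cold (replicates 1 to 4). Every cold library was above every control library, with means of 10.7 ± 0.791 TPM at 37°C and 12.5 ± 0.660 TPM after cold (SD, n = 4 each) and an exact two-sided permutation p of 0.0286. In edgeR the log2 fold change was 0.19 with an SE of 0.0753 and an adjusted p of 0.670, and with the replicate block the adjusted p was 0.157. Bid and Casp8 were the 2 members (6.9%) whose groups did not overlap in TPM, where 4.68% of all genes tested did not overlap, 2.41% with cold lower and 2.27% with cold higher.

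Casp2, an initiator caspase tied to DNA damage and centrosome number, had 8.61, 9.59, 11.57 and 10.50 TPM at 37°C and 9.00, 8.23, 9.50 and 9.09 TPM after cold. The groups overlapped, since control replicate 1 was below 3 of the cold libraries. Its log2 fold change was −0.17 with an SE of 0.0776 and an adjusted p of 0.751 in edgeR, or 0.167 with the replicate block. Casp9 and Apaf1, the parts of the apoptosome, differed by less than the spread between replicates: Casp9 was at 4.34 ± 0.181 against 4.19 ± 0.420 TPM and Apaf1 at 8.18 ± 0.624 against 8.40 ± 0.306 TPM (SD, n = 4 each). Casp6, an executioner caspase that cleaves lamin A, was at 23.5 ± 2.60 against 24.0 ± 3.73 TPM (SD, n = 4 each).

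**Figure D3:**
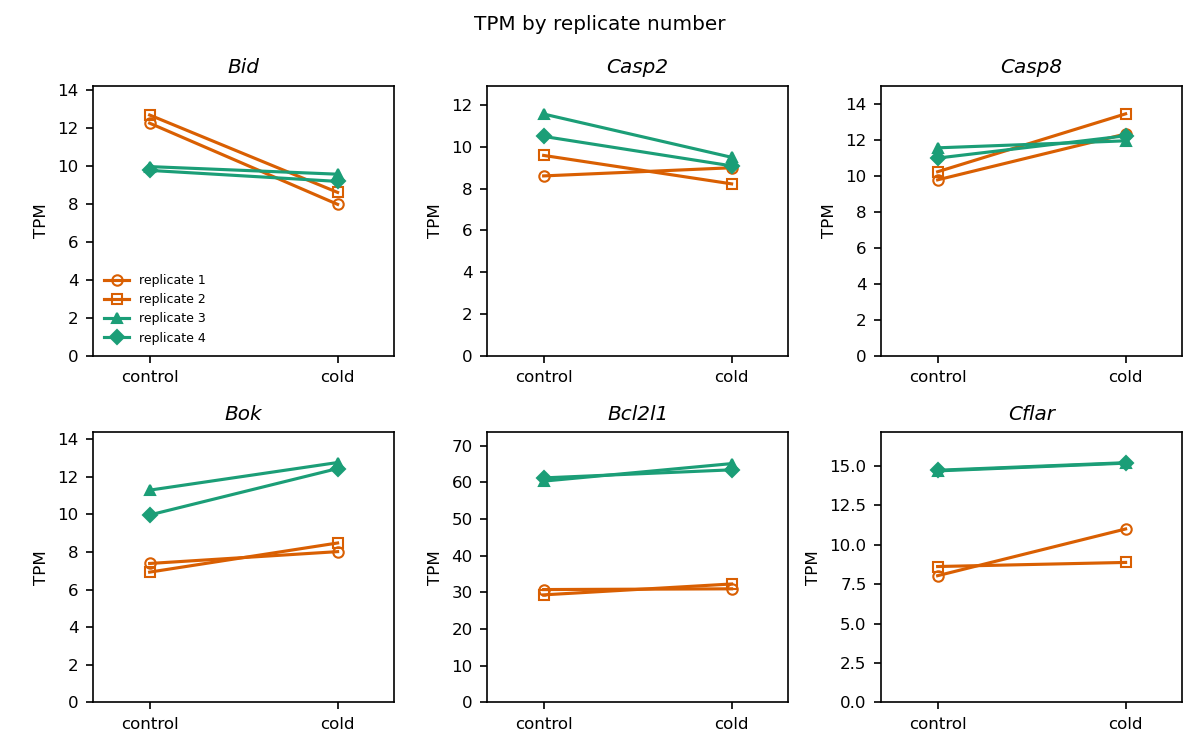
Each panel plots TPM on the y axis, from 0, for 1 gene at 37°C and cold libraries, with a line joining the libraries of the same replicate number, orange with open symbols for replicates 1 and 2 and green with filled symbols for replicates 3 and 4. All 4 lines run down for Bid and up for Casp8, Bok, Bcl2l1 and Cflar, and for Bcl2l1 the orange lines (29.3 to 32.3 TPM) lie far below the green lines (60.4 to 65.2 TPM).

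The inhibitor of apoptosis Birc2, which encodes the ubiquitin ligase cIAP1, had 15.7 ± 0.975 TPM at 37°C and 15.8 ± 1.19 TPM after cold (SD, n = 4 each). Its mitochondrial antagonist Diablo, which encodes SMAC, was far more abundant, at 106.5 ± 7.14 against 109.4 ± 3.25 TPM (SD, n = 4 each). Neither differed beyond the spread between replicates, and with the block the edgeR 95% intervals ran from −0.14 to 0.11 for Birc2 and from −0.10 to 0.11 for Diablo on the log2 scale. Diablo was estimated at −0.12 in replicates 1 and 2 alone and at 0.12 in replicates 3 and 4 alone, with an adjusted p of 0.401 for the interaction term in edgeR. Aifm1, a mitochondrial flavoprotein that can move to the nucleus in caspase-independent death, was at 85.0 ± 5.63 against 83.5 ± 1.77 TPM (SD, n = 4 each), with a log2 fold change of −0.04 and the narrowest unblocked SE of the members, 0.0423. Endog, a mitochondrial nuclease, was at 11.96 ± 1.21 against 11.1 ± 0.285 TPM (SD, n = 4 each), with 3 of 4 pairs lower and a log2 fold change of −0.11.

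Death receptors and their adaptors were likewise uncalled. Tnfrsf1a, the main receptor for TNF, was the most abundant of them, at 31.1 ± 3.17 TPM at 37°C and 32.5 ± 1.88 TPM after cold (SD, n = 4 each), and Fas was at 4.11 ± 0.831 against 3.80 ± 0.734 TPM (SD, n = 4 each). Fadd, the adaptor that recruits caspase-8, was at 6.69 ± 0.207 against 6.77 ± 0.636 TPM (SD, n = 4 each), and its estimates also had opposite signs in the sets of replicates, −0.13 and 0.11, with an adjusted p of 0.529 for the interaction term. Cflar encodes FLIP, the caspase-8 relative that blocks its activation at the receptor. It had 8.03, 8.61, 14.67 and 14.71 TPM at 37°C and 10.99, 8.87, 15.16 and 15.19 TPM after cold. Its cold libraries were higher in 4 of 4 pairs. The gap between replicates 1 and 2 and replicates 3 and 4 was wider than these rises, and the block accounts for that gap. With the block, the log2 fold change was 0.12 with an SE of 0.0788 and an adjusted p of 0.464 in edgeR.

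The necroptosis genes stood in a falling order of level, Ripk1 above Ripk3 above Mlkl, in each library, although the lowest Ripk3 value (2.22 TPM) was under the highest Mlkl value (2.27 TPM). Ripk1, the kinase shared by survival and death signalling, had 16.3 ± 0.516 TPM at 37°C and 17.4 ± 2.05 TPM after cold (SD, n = 4 each). Ripk3, the kinase that commits cells to necroptosis, had 2.92, 2.63, 3.26 and 3.14 TPM at 37°C and 2.22, 2.53, 4.74 and 3.86 TPM after cold. Cold libraries were below controls in replicates 1 and 2 and above them in replicates 3 and 4, and the interaction term had an adjusted p of 0.513 in edgeR. Mlkl, the pore-forming executioner, had 1.20, 0.94, 1.60 and 2.27 TPM at 37°C and 1.24, 1.23, 2.03 and 1.66 TPM after cold. Mlkl was scarce, at 45 to 105 counts per library, and its blocked log2 fold change of 0.04 had a 95% interval from −0.28 to 0.35.

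Mdm2, a ubiquitin ligase, was the second most abundant member. It had 119.1, 121.5, 156.1 and 168.0 TPM at 37°C and 119.0, 131.7, 149.6 and 151.2 TPM after cold. The groups overlapped, and the blocked log2 fold change was −0.04 with a 95% interval from −0.12 to 0.04.

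Ordered by mean TPM over the 8 libraries, Bax (352.8) was followed by Mdm2 (139.5), Diablo (108.0), Aifm1 (84.3), Mcl1 (74.9), Bak1 (54.2) and Bcl2l1 (46.7), and the list ended with Mlkl (1.52), Bcl2 (1.16) and Bmf (0.585). Of the 28 pairs of neighbours in that order, 7 did not overlap over the 8 libraries. These were Bax over Mdm2, Mdm2 over Diablo, Diablo over Aifm1, Mcl1 over Bak1, Casp6 over Ripk1, Apaf1 over Fadd, and Ripk3 over Pmaip1. The other 21 neighbours overlapped, among them Aifm1 and Mcl1, Bak1 and Bcl2l1, and the run from Cflar through Casp8, Endog, Bid, Bok and Casp2. TPM are scaled for transcript length, so these are comparisons of mRNA levels and not of protein.

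The widest differences of single members lay between these sets of replicates, although some members, such as Bid and Casp8, differed more between temperatures. In 13 of 29 members (44.8%), TPM of replicates 1 and 2 of both groups did not overlap with TPM of replicates 3 and 4, where 32.6% of all genes tested did not overlap. Replicates 3 and 4 were higher for 12 of these members (background 23.5%), and lower for 1, Bmf (background 9.09%). The 12 members were Bax, Mdm2, Mcl1, Bcl2l1, Cflar, Bok, Fadd, Bbc3, Fas, Ripk3, Mlkl and Bcl2, which spread over pore formers, guardians, death receptor and necroptosis genes. The mean TPM of replicates 3 and 4 was 2.03 times that of replicates 1 and 2 for Bcl2l1, 1.64 times for Cflar and for Mlkl, 1.58 times for Bcl2 and 1.51 times for Bok, while for Bmf it was 0.520 times. These sets of replicates were read from the data, so no test of these differences in level is given.

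Some ratios between opposing genes followed the same split. Bax TPM over Bcl2l1 TPM was 10.0 and 10.3 in control replicates 1 and 2 and 7.27 and 6.01 in control replicates 3 and 4. In the cold libraries it was 10.3 and 9.31 in replicates 1 and 2 and 6.31 and 5.88 in replicates 3 and 4. The ratio of Cflar to Casp8 TPM was 0.820, 0.841, 1.27 and 1.34 at 37°C and 0.891, 0.659, 1.27 and 1.24 in cold replicates 1 to 4. Summed TPM of Bax, Bak1 and Bok over summed TPM of Bcl2, Bcl2l1 and Mcl1 were 3.87, 3.87, 3.64 and 2.88 at 37°C and 3.70, 3.40, 3.28 and 2.99 in cold libraries. Bax TPM over Mcl1 TPM were 4.87, 4.81, 5.62 and 4.24 at 37°C and 4.54, 4.08, 5.11 and 4.49 in cold libraries. Bax over Bcl2l1 and Cflar over Casp8 did not overlap between replicates 1 and 2 and replicates 3 and 4, whereas Bax over Mcl1 and the summed ratio did. Ripk1 TPM over Casp8 TPM were 1.62, 1.63, 1.46 and 1.44 at 37°C and 1.57, 1.39, 1.40 and 1.21 in cold libraries, lower in 4 of 4 pairs, the only one of the 5 ratios to move one way in every pair. All 5 ratios overlapped between temperatures when pairs were disregarded.

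**Figure D4:**
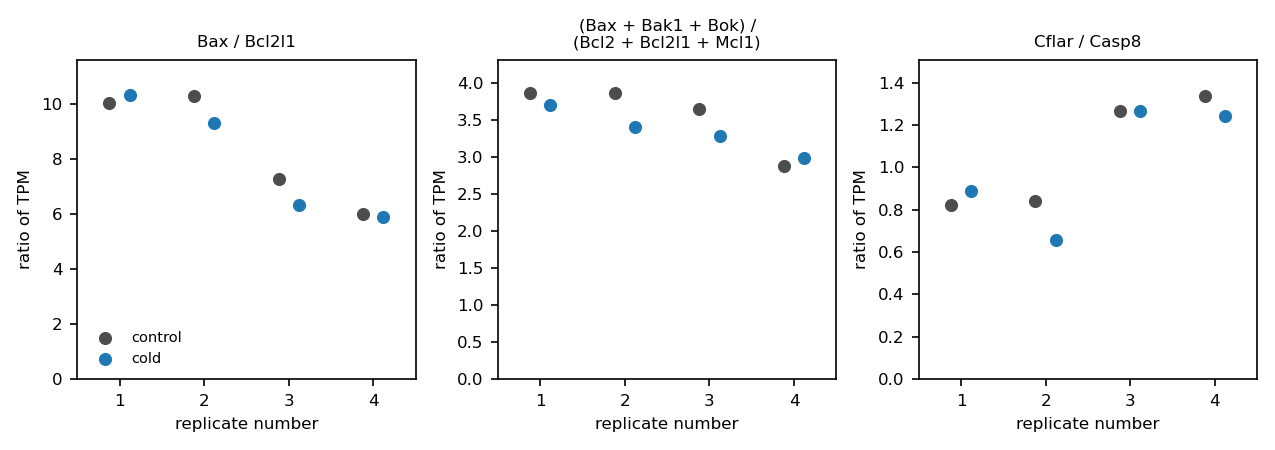
Ratios of TPM, on y axes from 0, are plotted by replicate number, with control libraries in grey and cold libraries in blue. They are Bax over Bcl2l1, summed Bax, Bak1 and Bok over summed Bcl2, Bcl2l1 and Mcl1 (without Bcl2l2), and Cflar over Casp8. Bax over Bcl2l1 is between 9.31 and 10.3 in replicates 1 and 2 and between 5.88 and 7.27 in replicates 3 and 4, in both groups.

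Some markers of other cells moved with the same split. The 7 fibroblast markers with values summed to between 733 and 790 TPM in replicates 1 and 2 and between 1005 and 1122 TPM in replicates 3 and 4. Of these 7, Col15a1 alone had the lower mean in replicates 3 and 4, at 29.7 against 33.0 TPM. Thy1 made up most of these fibroblast sums, with means of 499.8 TPM in replicates 1 and 2 and 647.0 TPM in replicates 3 and 4. The 6 leukocyte and macrophage markers with values summed to between 40.9 and 49.5 TPM and between 75.3 and 104.7 TPM, although this sum came almost wholly from Cd68, Cd14 and Csf1r. Endothelial markers were scarce and summed to between 2.02 and 2.58 TPM and between 2.78 and 4.04 TPM. The sums overlapped for pericyte and smooth muscle markers (67.1 to 70.6 and 67.5 to 93.9 TPM), adipocyte markers (0.84 to 1.24 and 0.43 to 1.08 TPM) and Schwann cell markers (2.19 to 3.61 and 2.71 to 3.43 TPM). The SC and myoblast markers summed to between 2500 and 3278 TPM in replicates 1 and 2 and between 2048 and 2437 TPM in replicates 3 and 4. The members of that list did not move together. Mean TPM were lower in replicates 3 and 4 for 6 of the 10 (Myog, Myod1, Des, Cdh15, Itga7 and Megf10), of which Myog (804.0 and 383.6 TPM), Itga7 (213.9 and 167.3 TPM) and Megf10 (99.4 and 71.0 TPM) did not overlap. They were higher for the other 4 (Myf5, Vcam1, Pax7 and Pax3), of which Myf5 (108.6 and 192.2 TPM) and Vcam1 (10.5 and 13.8 TPM) did not overlap. Control labels also give fewer days at 37°C for replicates 1 and 2 than for replicates 3 and 4. The cold labels give no such difference, although the cold libraries were split in the same way on the first principal component. The part of these differences in the levels of Bcl2l1, Cflar and the other members was not tested, and in bulk libraries a change in the share of a cell type cannot be told apart from a change in RNA per cell.

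Between temperatures, the fibroblast sums overlapped, at 733 to 1122 TPM at 37°C and 745 to 1085 TPM after cold, and so did the SC and myoblast sums, at 2312 to 3278 and 2048 to 2729 TPM. Single SC and myoblast markers nevertheless changed with cold in the blocked fit, where 4 of 10 were lower (background 4.07%) and 1 was higher (background 1.26%), while 0 of 10 were called without the block. Myog fell from a mean of 738.3 ± 316.4 TPM to 449.4 ± 171.5 TPM (SD, n = 4 each), with a blocked log2 fold change of −0.71, an SE of 0.0449 and an adjusted p of 2.96e-09 in edgeR. Cdh15 (−0.32, SE 0.0380), Itga7 (−0.29, SE 0.0348) and Myod1 (−0.13, SE 0.0329) fell with it in 4 of 4 pairs, and Megf10 rose by 0.17 (SE 0.0401) in 4 of 4 pairs. Pax7 had 12.7 ± 2.17 TPM at 37°C and 13.5 ± 1.70 TPM after cold (SD, n = 4 each) and was not called. The part of these marker changes in the estimates for Bid, Casp8 and the other members was not tested.

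Genes around the members were read from 5 lists written from general knowledge, with 111 genes, of which 101 had values and 92 were tested. Without the block, 0 of the 92 were called. With the replicate block, 4 were lower (background 4.07%) and 3 were higher (background 1.26%). The death receptor and TNF complex list had 0 of 25 genes called with a median log2 fold change of 0.05, and the list of other necroptosis and pyroptosis genes had 0 of 14 called with a median of −0.008, in the blocked fit.

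A list of caspase substrates and related genes had 1 of 10 genes called in the blocked fit. Lmnb1, the lamin B1 that caspases cleave, rose in the blocked fit by a log2 fold change of 0.13 with an SE of 0.0381 and an adjusted p of 0.0494 in edgeR. In the list of other BCL2 family and mitochondrial genes, 2 of 21 were called in that fit. Septin4, whose ARTS isoform antagonizes IAP proteins, fell from 3.15, 3.79, 2.43 and 2.07 TPM in control to 2.17, 1.89, 1.26 and 1.42 TPM after cold (replicates 1 to 4), with a blocked log2 fold change of −0.77, an SE of 0.186 and an adjusted p of 0.0174. Birc6, a giant IAP protein with ubiquitin ligase activity, rose from 11.0, 12.5, 12.9 and 12.8 TPM to 15.0, 14.2, 13.7 and 13.7 TPM, with a blocked log2 fold change of 0.18, an SE of 0.0474 and an adjusted p of 0.0292. Septin4 overlapped between the groups and Birc6 did not.

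The fifth list, which holds Cdkn1a, Gadd45a, Sesn1 and other genes, gave the lowest adjusted p among the neighbouring genes. Cdkn1a, which encodes the cell cycle inhibitor p21, had 828.7, 777.6, 656.2 and 643.2 TPM at 37°C and 541.9, 599.1, 564.3 and 534.2 TPM after cold (replicates 1 to 4). Every cold library was below every control library, with a log2 fold change of −0.39, an SE of 0.0531 and an adjusted p of 6.9e-05 in edgeR with the block, against an adjusted p of 0.331 without it. Eda2r, a TNF receptor family member, and Btg2, an antiproliferative gene, also fell in the blocked fit, with log2 fold changes of −0.29 (SE 0.0536) and −0.37 (SE 0.0897), whereas Plk2, a stress-induced kinase, rose by 0.19 (SE 0.0470). Of 22 genes tested in this list, 3 were lower and 1 was higher, and the median was −0.01. Cdkn1a and Eda2r were called whichever replicate number was left out of the blocked fit. The other called neighbours were not: Btg2 (adjusted p = 0.194 and 0.0763) and Plk2 (0.107 and 0.256) lost the call without replicate 1 or without replicate 2, as did Birc6 (0.305 and 0.105), in edgeR. Septin4 lost it without replicate 2 (adjusted p = 0.161) or replicate 3 (0.0554), and Lmnb1 without replicate 1 (0.188), 2 (0.151) or 3 (0.242). DESeq2 with the replicate block called only Eda2r (adjusted p = 0.00555) and Plk2 (0.0296) of these genes, with Cdkn1a at 0.0631.

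**Figure D5:**
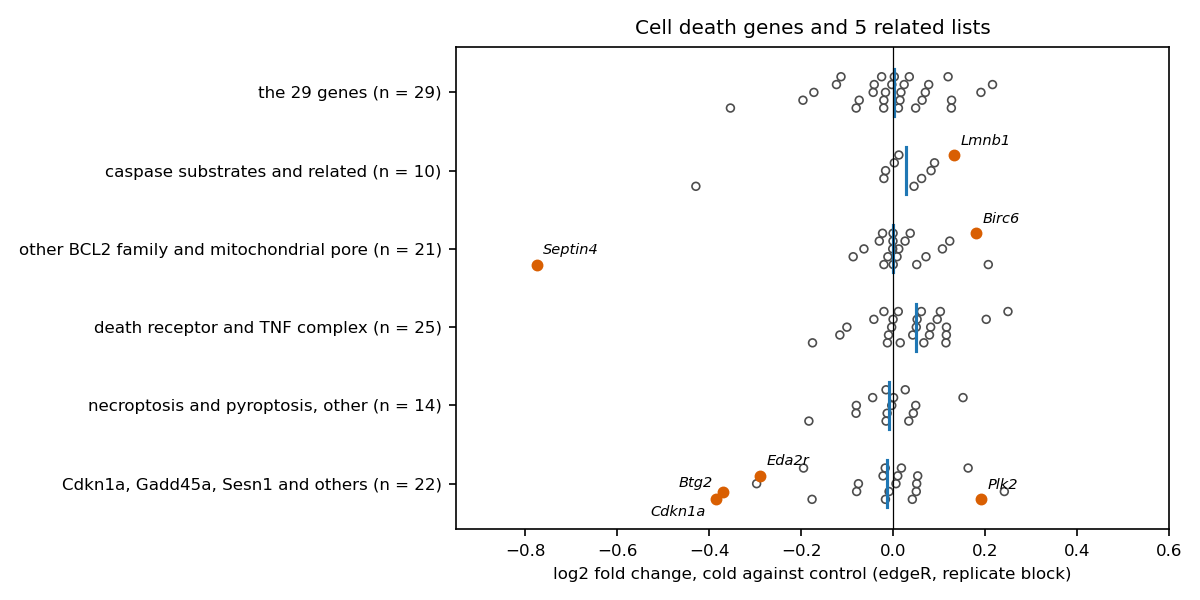
The log2 fold change of cold against control from the edgeR fit with the replicate block is on the x axis for the 29 genes and for the tested genes of 5 related lists, 1 row a list, with open points for genes not called and filled, named points for genes with an adjusted p under 0.05. Blue bars mark list medians, and the 29 genes hold no filled point while the list with Cdkn1a holds 4.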

How the data were processed

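The authors sequenced polyA RNA with paired-end reads of 150 bases. HISAT and HISAT2 are named in the submitters' processing notes; their versions, the counting program and the genome build are not given in the sources used here, so no coordinates are printed. The deposited table gives expected counts per gene, which are not normalized, TPM as the authors computed them per library, and normalized counts, a signal equal to the expected count rounded up times 1 factor per library (0.924 to 1.02). Rows were matched by symbol, and all 29 identifiers were found in RefSeq. Expected counts were rounded and fitted with edgeR 4.0.16 in R 4.3.3 (filterByExpr, TMM, quasi-likelihood test of cold against control, no block), with Benjamini-Hochberg adjustment over 12506 genes. TPM of single genes were compared by an exact two-sided permutation test over 70 arrangements. DESeq2 1.42.0 and limma 3.58.1 served as alternatives. The fits were tested on simulated data.

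The study calls the replicates biological, and nothing says what a replicate number marks. Deviations from the group means, across genes, correlated at 0.609, 0.618, 0.647 and 0.659 between same-numbered control and cold libraries. They were 0.432 to 0.591 between different numbers within replicates 1 and 2 or within 3 and 4, so much of the likeness is shared by those replicates, and −0.553 to −0.609 otherwise. Every same-numbered value exceeded 0.1, but so did those between different numbers within 1 and 2 or within 3 and 4. That limit therefore cannot show pairing by number. The numbers were nevertheless taken as pairs. No 2 libraries of the same group were alike within sampling noise. All 34 members are named. From the other lists, genes called in either edgeR fit were named, at most 3 in each direction. The rule's remaining named genes are not reported here. The members and lists were chosen with earlier results of these data known. Alternatives were RLE factors, library totals, other filters, the block, limma on log2 TPM, each library left out, and replicates 1 and 2 or 3 and 4 alone. Blocked DESeq2, blocked RLE and library totals, the block without 1 number and the interaction of cold with replicates 1 and 2 against 3 and 4 were added after seeing the data. Reads carry no molecular identifiers, so counts are not independent molecules.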

Additional observations from a re-analysis of the deposited data

Results flagged for a closer look

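One of 58 groups of 4 libraries held an isolated value (an outermost library set apart from the others by nearly the whole range of its group, by Dixon's criterion), where chance alone gives about 2.9 such groups. It was Endog in the cold group, at 10.71 TPM in replicate 2, against 11.27, 11.28 and 11.29 TPM in replicates 1, 3 and 4. The gap was 0.966 of a narrow range.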

How the results depend on the processing

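Over 26 alternatives, 10 of the 29 members kept 1 direction throughout and 19 turned in at least 1, in 88 of 754 fold changes. The only member called under any of them was Bid, in replicates 1 and 2 alone (1 member) and in the blocked fits without replicate 3 or 4 (0 to 1 members over all fits that left libraries out); no member passed the fold threshold, and the cause was not tested. The block changed no member's call. It moved the count over all genes from 9 to 667, and from 5 to 106 with the fold threshold.

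Over all genes, 145 were called by DESeq2, 14 with library totals, 25 without a filter, 4 with a mean of 10 counts, 4 by limma at each pseudocount, 1442 in replicates 1 and 2 alone, 50 in replicates 3 and 4 alone, 356 by DESeq2 with the replicate block, and 659 and 673 by the block with RLE factors and library totals; leaving libraries out gave 0 to 927. With the fold threshold these were 72, 8, 15, 3, 3, 183, 28, 92, 107 and 105, and 0 to 135. Of the unblocked fits, those without Control replicate 1, 2, 3 or 4 called 4, 2, 46 and 0 genes and those without Cold replicate 1, 2, 3 or 4 called 0, 1, 0 and 0; the blocked fits without replicate 1, 2, 3 or 4 called 394, 356, 574 and 927.

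In the other lists the replicate block moved the calls from 0 to 1 (caspase substrates), 2 (other BCL2 family) and 4 (the list with Cdkn1a), as did library totals with it; RLE factors with it gave 2 and 4 in the last 2, and blocked DESeq2 gave 2 in the list with Cdkn1a. Replicates 1 and 2 alone gave 1, 2 and 6. Leaving libraries out gave 0 to 1, 0 to 2 and 0 to 6.

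The directions that turned are given as log2 fold changes, none of them called and most of them small. In replicates 1 and 2 alone these were Bak1 −0.025, Casp6 −0.052, Birc2 0.066 and Ripk3 −0.28. In replicates 3 and 4 alone these were Bcl2l11 −0.09, Bbc3 0.10, Pmaip1 0.027, Bmf 0.16, Apaf1 −0.042, Diablo 0.12, Fadd 0.11, Ripk1 −0.0048 and Mlkl −0.056. With limma, Bcl2 was at 0.0043 and 0.0058 (pseudocounts 0.1 and 0.01), Birc2 at 0.001, Diablo at 0.041 and Fadd at 0.014 or 0.013. Diablo was at 0.003 with the replicate block, 0.0018 in blocked DESeq2, 0.0046 with library totals and 0.0068 with both; Fadd was at 0.004 with library totals and 0.0012 with both. Leaving libraries out gave −0.097 to 0.076 for Bax, −0.0088 to 0.061 for Bak1, −0.18 to 0.14 for Bcl2, −0.10 to 0.23 for Bcl2l1, −0.052 to 0.082 for Bcl2l11, −0.11 to 0.068 for Bbc3, −0.48 to 0.036 for Bmf, −0.07 to 0.099 for Casp6, −0.022 to 0.049 for Apaf1, −0.061 to 0.049 for Birc2, −0.056 to 0.046 for Diablo, −0.24 to 0.00031 for Fas, −0.051 to 0.043 for Fadd, −0.013 to 0.24 for Cflar, −0.066 to 0.29 for Ripk3, −0.13 to 0.27 for Mlkl and −0.11 to 0.027 for Mdm2. The count of members whose TPM did not overlap was 2 in normalized counts and in TMM CPM, and 2 to 3 with 1 library left out.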
